A study of Homo sapiens with 18 samples.

Results

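The genes described here are the AP-1 family members FOS, FOSB, FOSL1, FOSL2, JUN, JUNB and JUND with their relatives ATF3 and BATF3. They were followed on 18 expression arrays of hepatocellular carcinoma lines after knockdown of ATAD2, an AAA ATPase whose bromodomain binds acetylated histones. The members were taken by name. Every probe set annotated to exactly 1 of these 9 genes was used, which gave 9 of 19775 measured genes and 21 of the 54675 probe sets on the array, with 1 each for FOS, FOSB, FOSL1, JUNB and BATF3, 3 for ATF3, 4 each for JUN and JUND and 5 for FOSL2. No probe set was left out for a low signal. Hep3B, SNU449 and PLC (PLC/PRF/5), established human liver cancer lines grown in RPMI, were transfected by means of Lipofectamine RNAiMax with an siRNA against ATAD2 or with a non-targeting control siRNA. Each of these 6 groups had 3 arrays, labelled as biological replicates. The treated samples are called knockouts in some labels, but the design describes siRNA, so they are knockdowns. The siRNA sequences, the dose and the time after transfection were not given in the sources used here.

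AP-1 is a dimeric transcription factor that joins basic leucine zipper proteins of the FOS, JUN and ATF families. JUN proteins can pair with each other or with a FOS protein, while FOS proteins need a JUN partner to bind DNA. FOS, FOSB, JUN, JUNB and ATF3 are immediate early genes, whose mRNAs are short-lived and are made within minutes of growth factor or stress signals through MAP kinases. In liver, JUN is required for hepatocyte proliferation during regeneration and supports tumour formation.

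The signal of the targeted gene was lower on every ATAD2 siRNA array than on every control array of its line. The log2 change of its main probe set was -3.80 in Hep3B, -2.39 in SNU449 and -2.62 in PLC (limma, adjusted p = 2.73e-10, 1.35e-06 and 5.01e-07). All signals are log2 values quantile normalized over the 18 arrays, which set the median of each array to 5.05. The labels of 2 lines went against their markers. The SNU449-labelled control arrays had an albumin (ALB) signal of 13.75 to 13.78 and the Hep3B-labelled ones of 2.90 to 3.16. RB1, a gene that Hep3B is known to lack, had a signal of 4.27 to 4.63 under the SNU449 label and of 9.44 to 9.51 under the Hep3B label. The line names below stand for the arrays so labelled, and each knockdown was compared with controls of its own label. Beta-actin and GAPDH have control probe sets at each end of the transcript, and the mean log2 difference of the 5' from the 3' end, a measure of RNA integrity, was -0.42 on Hep3B ATAD2 siRNA replicate 2 against -0.79 to -0.65 on the other 5 Hep3B arrays. In PLC it was -1.15 and -1.09 on ATAD2 siRNA replicates 1 and 3, against -0.59 to -0.44 on the other 4 arrays.

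Promoter sequence is shown for the members because 5 of them fell together in Hep3B. The RefSeq promoter table (GRCh38.p14) held 7 of the 9 genes. FOSL1 and BATF3 were not matched. Each sequence ends at the base before the annotated start and runs 5′ to 3′ on the gene's strand. Capitals mark TGACNTCA and the core TGACG or CGTCA, searched on both strands. These are forms of the site read by CREB, ATF and JUN dimers, and the core lies inside the full site TGACGTCA. The JUN sequence is chr1:58784048-58784197 (minus strand), ATF3 is chr1:212565257-212565406 (plus strand), and JUNB is chr19:12791336-12791485 (plus strand). FOS is chr14:75278678-75278827 (plus strand), FOSB chr19:45467846-45467995 (plus strand) and FOSL2 chr2:28392708-28392857 (plus strand). A longer stretch of chr19:18281623-18281872 (minus strand) is printed for JUND because its full site lies farther from the start.
JUN: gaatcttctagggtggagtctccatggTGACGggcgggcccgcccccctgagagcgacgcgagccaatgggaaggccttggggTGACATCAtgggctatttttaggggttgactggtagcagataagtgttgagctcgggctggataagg
ATF3: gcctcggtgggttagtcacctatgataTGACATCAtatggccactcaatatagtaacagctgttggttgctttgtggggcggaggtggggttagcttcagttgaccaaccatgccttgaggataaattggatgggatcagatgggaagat
JUNB: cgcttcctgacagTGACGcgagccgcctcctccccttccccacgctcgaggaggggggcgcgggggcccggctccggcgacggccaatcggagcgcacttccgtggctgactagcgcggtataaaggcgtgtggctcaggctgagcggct
FOS: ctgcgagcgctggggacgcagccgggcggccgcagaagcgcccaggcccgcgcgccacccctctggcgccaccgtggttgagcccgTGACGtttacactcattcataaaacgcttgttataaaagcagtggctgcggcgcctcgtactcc
FOSB: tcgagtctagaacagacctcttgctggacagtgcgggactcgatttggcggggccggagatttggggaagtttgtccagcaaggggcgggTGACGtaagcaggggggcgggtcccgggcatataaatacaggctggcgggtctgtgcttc
FOSL2: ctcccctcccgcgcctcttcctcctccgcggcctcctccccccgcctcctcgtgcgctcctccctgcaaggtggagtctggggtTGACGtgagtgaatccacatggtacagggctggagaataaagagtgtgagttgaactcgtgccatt
JUND: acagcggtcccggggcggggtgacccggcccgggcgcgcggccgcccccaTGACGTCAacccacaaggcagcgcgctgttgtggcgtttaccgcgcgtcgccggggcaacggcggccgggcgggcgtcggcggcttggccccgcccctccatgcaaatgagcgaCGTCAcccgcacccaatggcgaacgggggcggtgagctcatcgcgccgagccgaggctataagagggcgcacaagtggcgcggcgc

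JUN and ATF3 held the same variant site TGACATCA, starting 67 bases before the start of JUN and 123 bases before that of ATF3. JUN also held TGACG at -123. JUND held the full site TGACGTCA at -200 and a CGTCA at -86. FOS, FOSB, FOSL2 and JUNB held a single TGACG in the stretch shown, at -64, -60, -66 and -137. A second annotated start of ATF3 had no match. Over 35116 promoter windows of 250 bases, 6.87% held TGACNTCA, 1.65% TGACGTCA and 21.2% the core. The AP-1 site TGANTCA was in 6.57% of all windows and the serum response element (CArG box) in 1.16%. Neither was in the 250-base window of any of the 7 member genes. Bases farther upstream were not searched, so the search could not find a site there, for FOS or any other member. A match is a string of letters and no evidence that a factor was bound.

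In Hep3B, knockdown of ATAD2 was followed by lower JUN, JUNB, ATF3, FOS and FOSB, while 2 probe sets of FOSL2 rose. FOSL1, JUND and BATF3 did not pass the test. Of the 21 probe sets, 10 were called (8 lower and 2 higher; limma, adjusted p under 0.05), which is 47.6%, against 8.87% of all 54613 probe sets tested in this line. Over all probe sets 3.79% were called lower and 5.08% higher. Dim probe sets lower these shares. Without the dimmest 50% of probe sets, 10 of 19 member probe sets were called, against 23.9% of all those left. The members were chosen with earlier results of these data known. With each gene represented by its probe set of highest mean signal, 5 of 9 members fell and 0 rose, against 5.60% of 19775 genes called lower. The median log2 change was -0.13 over the 21 probe sets and -0.01 over all probe sets. In 14 of the 21 probe sets the 3 knockdown and 3 control arrays did not overlap (11 lower and 3 higher), against 26.7% of all probe sets in either direction. As these are bulk samples, fewer cells of a kind and less RNA per cell cannot be told apart.

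**Figure D1:**
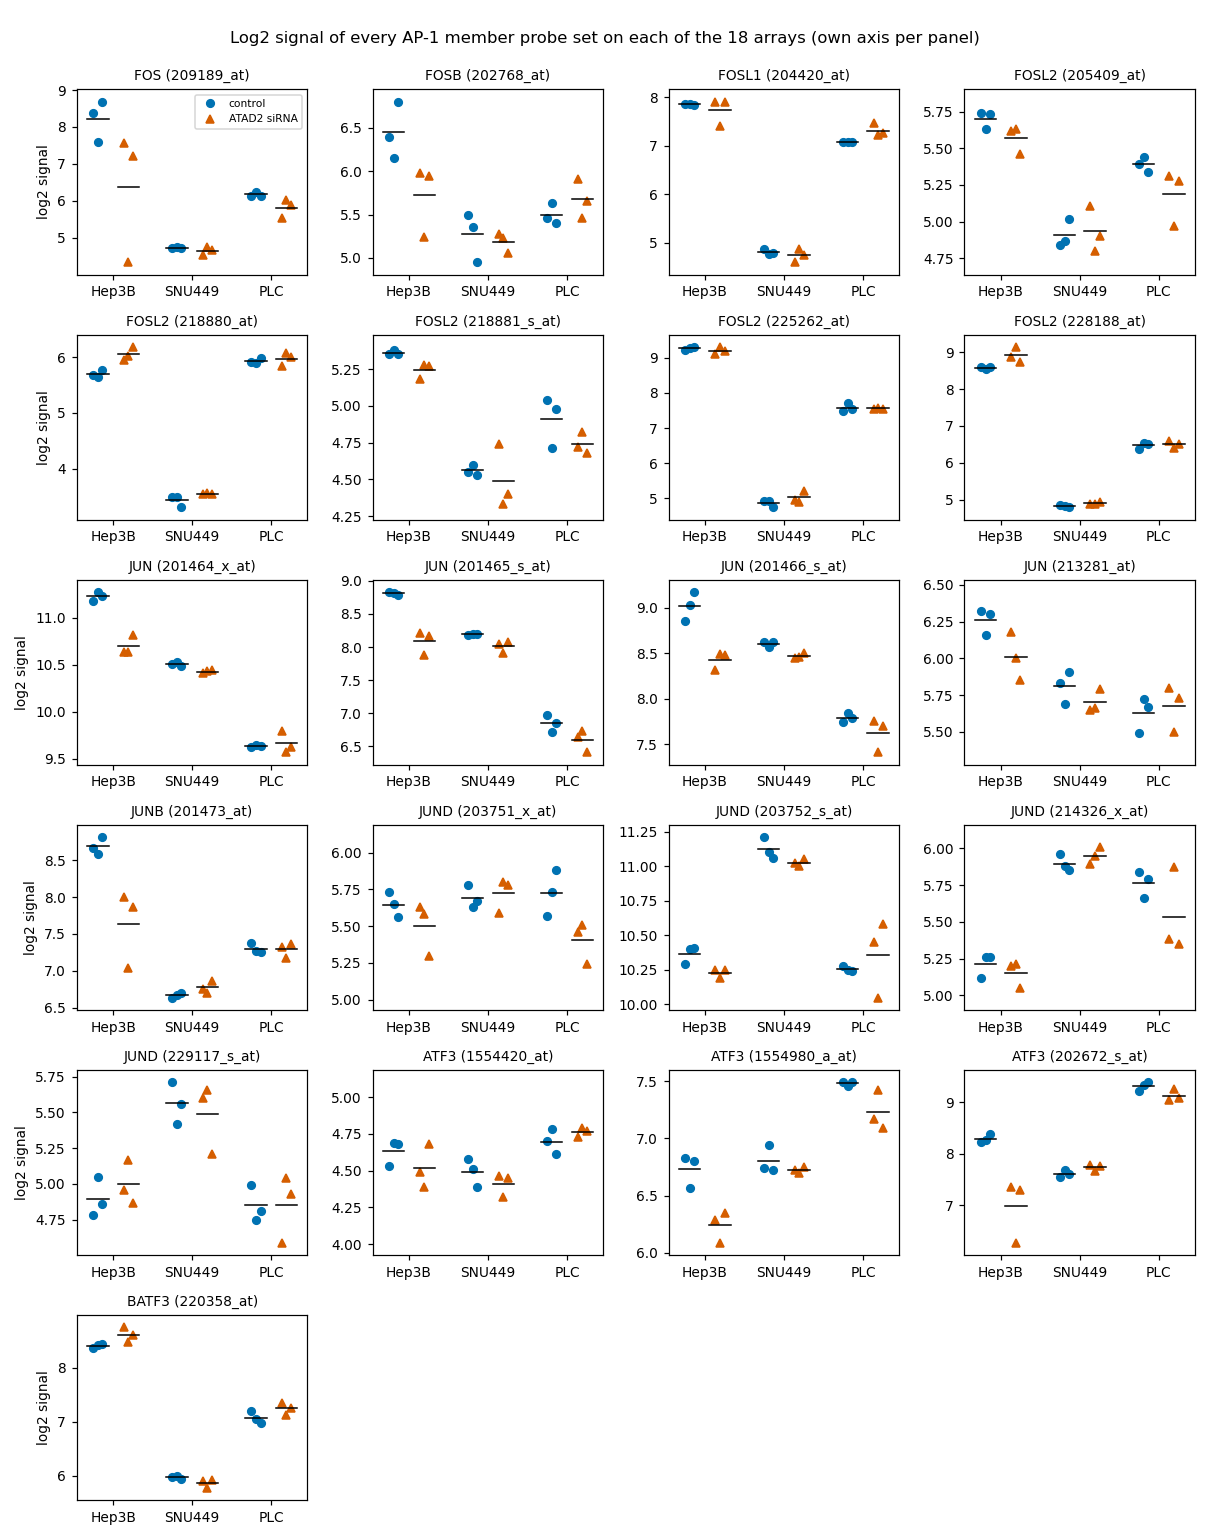
Log2 signal of the 21 member probe sets on each of the 18 arrays, by line, with control and ATAD2 siRNA arrays marked apart and 1 point per array. In Hep3B the control and ATAD2 siRNA points of JUN (201464_x_at), JUNB and ATF3 (202672_s_at) lie apart, and the FOS value of ATAD2 siRNA replicate 2 (4.34) lies far below the others.

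JUN, the core partner of AP-1 dimers, fell on 3 of its 4 probe sets. Probe set 201464_x_at had a log2 signal of 11.18, 11.27 and 11.23 on the Hep3B controls and of 10.64, 10.64 and 10.82 after ATAD2 siRNA. All 3 knockdown arrays lay below all 3 controls. The change was -0.52 ± 0.07 (log2 ± SE, n = 3 each), a 1.44-fold fall (limma, adjusted p = 6.42e-05). Probe set 201465_s_at went from 8.83, 8.81 and 8.79 to 8.21, 7.88 and 8.17, a change of -0.72 ± 0.10 (adjusted p = 9.79e-05). Probe set 201466_s_at went from 8.85, 9.03 and 9.17 to 8.31, 8.49 and 8.48, a change of -0.59 ± 0.09 (adjusted p = 4.56e-04). The dimmest JUN probe set, 213281_at, had overlapping groups and a change of -0.25 that did not pass (adjusted p = 0.162). The 3 called JUN probe sets kept their calls under all 27 alternatives tried.

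JUNB, which can oppose JUN in growth control, had a log2 signal of 8.67, 8.58 and 8.81 on the Hep3B controls and of 8.0, 7.04 and 7.87 after knockdown. The groups did not overlap, and replicate 2 was the lowest. Its change was -1.05 ± 0.17 (log2 ± SE, n = 3 each), a 2.07-fold fall (limma, adjusted p = 5.00e-04). Without ATAD2 siRNA replicate 2 the change was -0.75 (adjusted p = 3.69e-05). JUND, which is less inducible than JUN and JUNB, had 4 probe sets and none passed. Its brightest, 203752_s_at, read 10.29, 10.40 and 10.41 against 10.25, 10.19 and 10.25. These groups did not overlap, with standard deviations of 0.07 and 0.03. The change of -0.13 did not pass in limma, which uses a spread pooled over the 6 groups (95% interval -0.34 to 0.07, adjusted p = 0.555). The other JUND probe sets changed by -0.15 to 0.10, with overlapping groups.

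ATF3, a stress-induced repressor and JUN partner, had the largest change among the members whose calls held under every alternative. Probe set 202672_s_at had a log2 signal of 8.23, 8.26 and 8.39 on the Hep3B controls and of 7.35, 6.27 and 7.30 after knockdown. Every knockdown array was lower than every control, with replicate 2 about 1 unit below the others. The change was -1.32 ± 0.19 (log2 ± SE, n = 3 each), a 2.50-fold fall (limma, adjusted p = 2.07e-04), and it was -0.97 without ATAD2 siRNA replicate 2. Probe set 1554980_a_at went from 6.83, 6.57 and 6.80 to 6.29, 6.09 and 6.35, a change of -0.49 (adjusted p = 0.00300). The last ATF3 probe set, 1554420_at, had a mean signal at the 38.7th percentile of the array and a change of -0.11 (adjusted p = 0.548).

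FOS, the best known immediate early gene of the family, had the largest and most uneven change. Its log2 signal was 8.37, 7.59 and 8.68 on the Hep3B controls and 7.58, 4.34 and 7.22 after knockdown. The highest knockdown array lay just below the lowest control, and the other two knockdown arrays lay clearly below all controls. The change was -1.83 ± 0.55 (log2 ± SE, n = 3 each; 95% interval -2.99 to -0.68), or 3.57-fold (limma, adjusted p = 0.0460). Without replicate 2 of the ATAD2 siRNA arrays the change was -0.82, with a smaller spread and an adjusted p of 0.0395. The call was lost under 15 of 27 alternatives, with adjusted p-values between 0.00859 and 0.187 over all of them. Leaving out Hep3B control replicate 1 (0.125) or 3 (0.177) ended it, as did leaving out any single SNU449 array (0.0606 to 0.0611), any PLC control array (0.0552 to 0.0572) or PLC ATAD2 siRNA replicate 3 (0.0516). The PLC and SNU449 arrays enter only through the shared estimate of the spread.

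FOSB, a FOS paralogue, had a log2 signal of 6.40, 6.15 and 6.80 on the Hep3B controls and of 5.98, 5.24 and 5.95 after knockdown. The groups did not overlap, and the change was -0.72 ± 0.20 (log2 ± SE, n = 3 each; limma, adjusted p = 0.0289). Its call ended when ATAD2 siRNA replicate 2 was left out (-0.48, adjusted p = 0.151), and likewise for Hep3B control replicate 1 (-0.75, 0.0643) or 3 (-0.55, 0.161). The array with the lowest FOS, FOSB, JUNB and ATF3 signal was thus the same in each case, replicate 2 of the ATAD2 siRNA group, which also differed in the 5' and 3' measure. With that measure as a covariate, an alternative chosen after seeing the data, 10 member probe sets were called in Hep3B (7 lower and 3 higher), when 10.3% of all probe sets were, and FOS was not (-1.74, adjusted p = 0.0571).

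FOSL2, also called FRA2, had probe sets that disagreed. Probe set 218880_at rose from 5.67, 5.64 and 5.76 to 5.95, 6.02 and 6.18 on the Hep3B arrays, a log2 change of 0.36 ± 0.08 (SE, n = 3 each; limma, adjusted p = 0.00554). Probe set 228188_at rose from 8.61, 8.54 and 8.59 to 8.88, 9.14 and 8.73, a change of 0.34 ± 0.09 (adjusted p = 0.0202). The brightest FOSL2 probe set, 225262_at, read 9.23, 9.28 and 9.30 against 9.10, 9.31 and 9.20, with no call (-0.07, adjusted p = 0.813). The remaining pair of FOSL2 probe sets changed by -0.13 and -0.12 without passing. The call of 228188_at ended when Hep3B control replicate 2 (0.31, adjusted p = 0.0854), control replicate 3 (0.34, 0.0587) or ATAD2 siRNA replicate 2 (0.23, 0.0898) was left out, whereas that of 218880_at held under all 27 alternatives. FOSL1, also called FRA1, read 7.85, 7.86 and 7.83 against 7.90, 7.40 and 7.89 and was not called (-0.12, adjusted p = 0.709). BATF3, a short bZIP partner of JUN known from dendritic cells, read 8.37, 8.41 and 8.43 against 8.74, 8.48 and 8.60. Its groups did not overlap, and its change of 0.20 did not pass (adjusted p = 0.142), though it did on the values as deposited (0.26, 0.0334), with arrays centred on their medians (0.30, 0.0140) and with the 5' and 3' covariate (0.23, 0.0216).

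In SNU449 no member was called after knockdown, against 0.0439% of all probe sets called at an adjusted p under 0.05. An unadjusted p under 0.05 in limma was reached by 0 of 21, a count without a share over all probe sets beside it. The largest member change was -0.18 (JUN 201465_s_at, 95% interval -0.39 to 0.02; limma, adjusted p = 0.744). FOS read 4.71, 4.76 and 4.71 on the SNU449 controls and 4.53, 4.76 and 4.67 after knockdown, below the array median of 5.05 on all 6 arrays. ATF3 202672_s_at read 7.55, 7.68 and 7.60 against 7.79, 7.67 and 7.77, and JUNB read 6.64, 6.67 and 6.70 against 6.76, 6.70 and 6.87. These groups overlapped. The JUN probe set 201464_x_at read 10.51, 10.53 and 10.49 against 10.41, 10.43 and 10.44, a change of -0.08 with groups apart. JUN 201465_s_at and 201466_s_at were also lower with groups apart (-0.18 and -0.14), and 213281_at changed by -0.11 with overlapping groups. Groups were apart for 7 of the 21 member probe sets, against 19.6% of all.

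In PLC no member was called either, against 3.33% of all probe sets. Of the members 5 had an unadjusted p under 0.05 in limma, and the share of all probe sets at that threshold is not given here. JUN 201464_x_at read 9.63, 9.65 and 9.64 on the PLC controls and 9.80, 9.57 and 9.63 after knockdown, a log2 change of 0.03 (95% interval -0.11 to 0.17). ATF3 202672_s_at read 9.23, 9.33 and 9.39 against 9.05, 9.27 and 9.08, and JUNB read 7.38, 7.27 and 7.26 against 7.33, 7.18 and 7.37. FOS read 6.13, 6.25 and 6.14 against 5.53, 6.02 and 5.89, a change of -0.36 with groups apart (95% interval -1.51 to 0.80, limma, adjusted p = 0.780). That interval rests on the spread pooled over the 6 groups. For FOS the standard deviations were 0.06 and 0.25 in the PLC groups and 1.77 on the Hep3B knockdown arrays. The smallest adjusted p was that of JUND 203751_x_at (-0.32, adjusted p = 0.0989). JUN 201465_s_at changed by -0.26 (95% interval -0.46 to -0.05, limma, adjusted p = 0.143) with overlapping groups. ATF3 1554980_a_at changed by -0.25 (-0.45 to -0.05, adjusted p = 0.151) with groups apart. JUN 201466_s_at and 213281_at changed by -0.17 and 0.05, and ATF3 1554420_at by 0.06. Without PLC ATAD2 siRNA replicate 2, 5 member probe sets were called (4 lower and 1 higher), while 13.8% of all probe sets were. These 5 were JUN 201465_s_at (-0.33), ATF3 1554980_a_at (-0.35) and JUND 203751_x_at (-0.38), 214326_x_at (-0.40) and 203752_s_at (0.26). The JUND probe sets then went in opposite directions. The 5' and 3' measure of replicate 2 (-0.45) lay among the PLC controls (-0.59 to -0.44), while the knockdown arrays kept had -1.15 and -1.09. In that fit knockdown and this measure cannot be told apart. With the 5' and 3' measure as a covariate 0 members were called in PLC. With all arrays, groups were apart for 5 of the 21 members, against 16.7% of all probe sets.

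**Figure D2:**
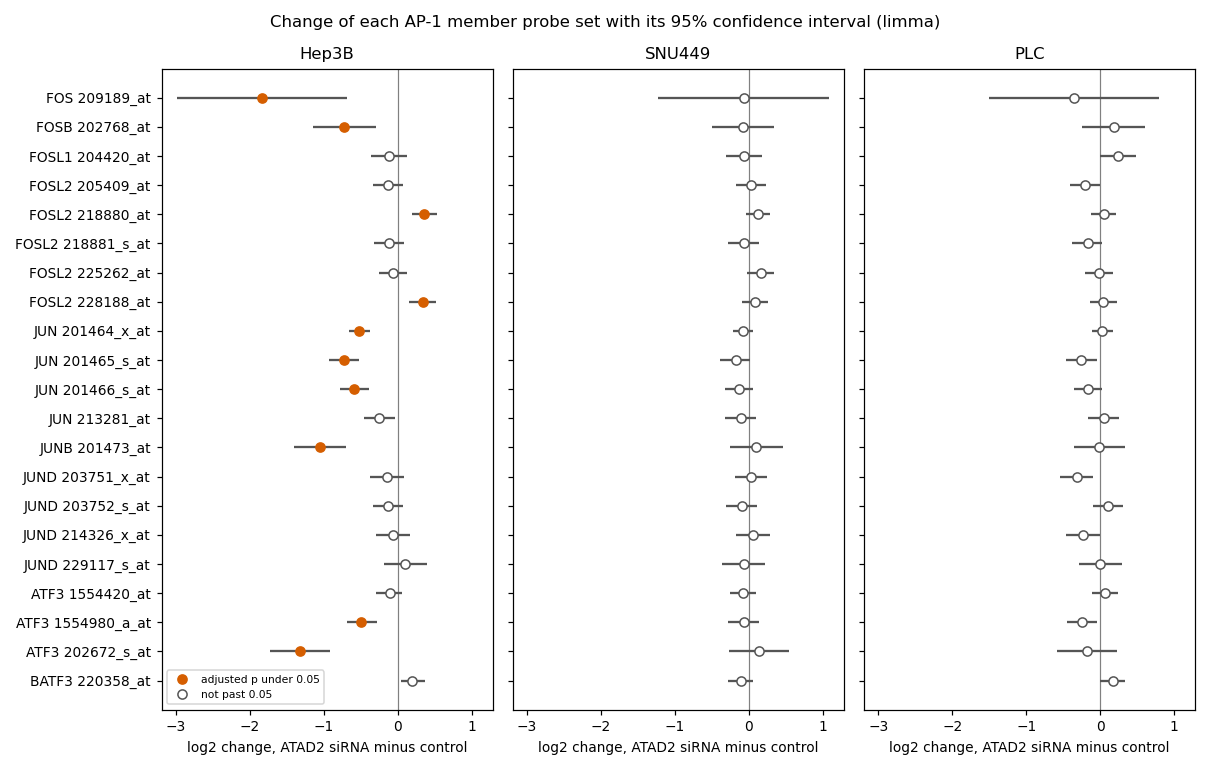
Log2 change (ATAD2 siRNA minus control) of each member probe set in the 3 lines, with 95% intervals from limma and calls at an adjusted p under 0.05 filled. Calls appear in Hep3B alone, with JUN, JUNB, ATF3, FOS and FOSB to the left of 0 and 2 FOSL2 probe sets to the right.

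Whether the response differed between lines was tested directly. In a limma F test over the lines 4 of 21 member probe sets passed, against a background of 4.67%. They were JUN 201464_x_at (adjusted p = 0.00492), JUN 201465_s_at (0.0465), JUNB (0.0134) and ATF3 202672_s_at (0.00911). The change of JUN 201464_x_at was 0.44 ± 0.09 (log2 ± SE) less negative in SNU449 than in Hep3B (limma, adjusted p = 0.0166), and 0.55 ± 0.09 less so in PLC (0.00296). For JUNB these differences were 1.15 (0.0118) and 1.04 (0.0177), and for ATF3 202672_s_at 1.45 (0.00586) and 1.14 (0.0220). Over all probe sets 2.70% differed between SNU449 and Hep3B and 5.25% between PLC and Hep3B, while 4 and 3 of the 21 members did. None of the 21 differed between SNU449 and PLC, where 0.114% of all probe sets were called at an adjusted p under 0.05. An unadjusted p under 0.05 in limma was reached there by 2 members, a count without a share over all probe sets. For FOS and FOSB the difference between lines did not pass (limma F test, adjusted p = 0.318 and 0.139). The FOS test too used the pooled spread, which was widest on the Hep3B knockdown arrays (standard deviation 1.77). JUN 201464_x_at, JUNB and ATF3 202672_s_at kept the F test call under all 26 alternatives, and JUN 201465_s_at lost it under 19, with an adjusted p of up to 0.112. Its call was lost on the deposited values (0.0630), with normalization within lines (0.0872), with median centring (0.0544), with the replicate block (0.112) and with the 5' and 3' covariate (0.0715). It was also lost without any Hep3B control, without any SNU449 array, without Hep3B ATAD2 siRNA replicate 2 or 3, and without PLC control replicate 2 or 3 or PLC ATAD2 siRNA replicate 1. These comparisons of lines share the Hep3B arrays.

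The control arrays gave the levels of each member before knockdown. Hep3B had the highest control signal of FOS, FOSB and JUNB, of the 4 JUN probe sets, of FOSL2 225262_at and 228188_at and of BATF3 under each of the 3 scalings used, and of FOSL1 except with arrays centred on their medians, where PLC was above it by 0.17. With limma and a difference of at least 1 log2 unit, SNU449 had 0 member probe sets above Hep3B and 8 below it, against 8.77% and 8.37% of all probe sets (17.1% in either direction). FOSL2 225262_at differed by -4.41 ± 0.09 (log2 difference ± SE, n = 3 each), from a control signal of 9.23 to 9.30 in Hep3B to 4.74 to 4.93 in SNU449 (adjusted p = 5.12e-17). FOS differed by -3.49, FOSL1 by -3.03, BATF3 by -2.43, JUNB by -2.02 and FOSB by -1.18. The FOSB difference was -0.80 on the values as deposited. JUND 203752_s_at was higher in SNU449 by 0.75, short of 1 log2 unit.

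PLC controls had 1 probe set higher and 8 lower than Hep3B, against 15.9% of all probe sets called in either direction. ATF3 202672_s_at was higher by 1.02 (limma, adjusted p = 1.71e-04), a value that was 0.99 without Hep3B control replicate 1 and 0.98 without PLC control replicate 3. FOS differed by -2.04, FOSL2 228188_at by -2.11, JUN 201465_s_at by -1.96, JUN 201464_x_at by -1.59, JUNB by -1.38 and BATF3 by -1.33. With arrays centred on their medians, 5 of the 8 lower probe sets fell short of 1 log2 unit, JUN 201464_x_at (-0.21), JUN 201466_s_at (-0.07), JUNB (-0.33), BATF3 (-0.35) and FOSL2 225262_at (-0.57). Without Hep3B control replicate 2 or PLC control replicate 2, FOSB was called as well (-1.10 and -1.02). SNU449 had 1 probe set higher than PLC, JUN 201465_s_at by 1.35, and 7 lower, ATF3 202672_s_at by -1.71 and FOSL1 by -2.26 among them (17.3% of all probe sets called). The FOS difference in that pair, -1.45, lost its call without any 1 of the 6 control arrays (adjusted p = 0.0515 to 0.0613), and was -0.29 on the values as deposited (0.559) and -0.31 with normalization within each line (0.534). Levels between lines rest on the scaling. On the values as deposited the median of all probe sets was 0.71 lower in PLC than in Hep3B (a log2 difference of -0.71) and 0.87 higher in SNU449 than in PLC. On that scale 16 members differed between PLC and Hep3B (1 higher and 15 lower) and 13 between SNU449 and PLC (9 higher and 4 lower). With arrays centred on their medians the medians of all probe sets shifted the other way, to 0.54 and -0.58, and 6 members differed between PLC and Hep3B (3 higher and 3 lower) and 9 between SNU449 and PLC (0 higher and 9 lower). The shares of all probe sets called on these other scales are not given here, so the counts cannot be read as particular to the members. The direction was the same under the 3 scalings for 20 of 21 members between SNU449 and Hep3B. It was the same for 15 between PLC and Hep3B and for 11 between SNU449 and PLC.

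**Figure D3:**
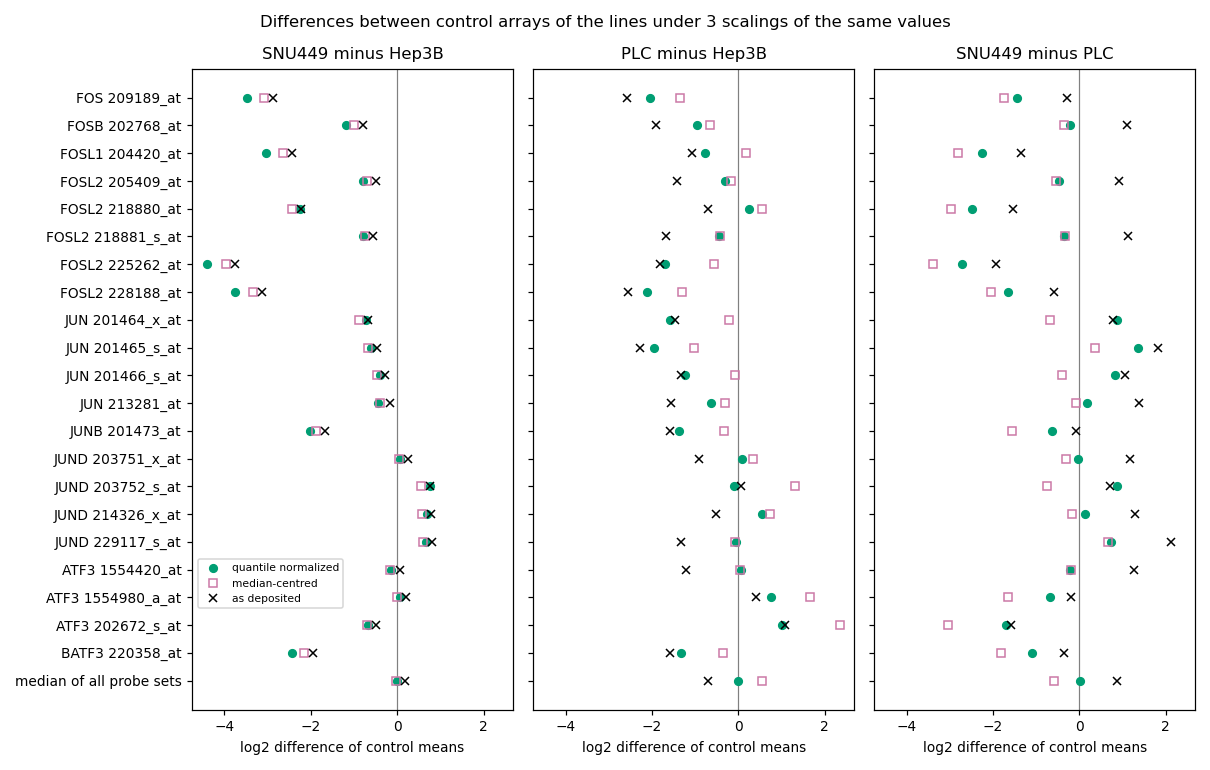
Log2 difference between control arrays for each member probe set and each pair of lines, under quantile normalization, as deposited and with arrays centred on their medians. The 3 scalings lie closer together for SNU449 minus Hep3B (FOSL2 225262_at at -4.41, -3.76 and -3.96, in that order) than where PLC is involved.

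The order of control levels was read from the arrays of each line. For JUNB it was Hep3B (8.58 to 8.81), PLC (7.26 to 7.38) and SNU449 (6.64 to 6.70), with no overlap of neighbours. For FOS it was Hep3B (7.59 to 8.68), PLC (6.13 to 6.25) and SNU449 (4.71 to 4.76). For FOSL1 it was Hep3B (7.83 to 7.86), PLC (7.07) and SNU449 (4.76 to 4.88), with the exception for median centring given above. ATF3 202672_s_at had another order, with PLC (9.23 to 9.39) above Hep3B (8.23 to 8.39) and SNU449 (7.55 to 7.68) lowest. JUN 201464_x_at also differed, with Hep3B (11.18 to 11.27) above SNU449 (10.49 to 10.53) and PLC (9.63 to 9.65) lowest, an order that turned between SNU449 and PLC with arrays centred on their medians (-0.67). FOSB overlapped between PLC (5.40 to 5.63) and SNU449 (4.95, 5.36 and 5.5), which did not differ beyond their spread in this scaling (-0.23; limma, adjusted p = 0.325). On the values as deposited FOSB was higher in SNU449 than in PLC by 1.10 (adjusted p = 9.28e-06), and with normalization within each line by 1.07 (1.51e-05).

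Other genes of the pathway were taken from lists, 1 probe set per gene. Of 24 measured immediate early genes outside the family, 8 fell and 2 rose in Hep3B (limma), against 5.60% and 6.91% of all genes, with a median log2 change of -0.23 against -0.02. EGR1, a zinc finger factor induced with FOS, read 11.49, 11.50 and 11.68 on the controls and 10.73, 8.95 and 10.57 after knockdown, a change of -1.48 ± 0.29 (SE, n = 3 each; adjusted p = 0.00310). DUSP1, a phosphatase of MAP kinases, fell by 1.19 (adjusted p = 4.65e-04) and the nuclear receptor gene NR4A2 by 1.0 (0.00265). KLF4, a Krüppel-like factor gene, rose from 7.04, 6.93 and 6.93 to 8.09, 8.0 and 8.18, a change of 1.12 (adjusted p = 2.04e-07). Against the control mean, the list median was -0.09, -0.69 and -0.07 for knockdown replicates 1, 2 and 3, lowest for replicate 2. Without that array 7 fell and 2 rose, with a median of -0.06.

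**Figure D4:**
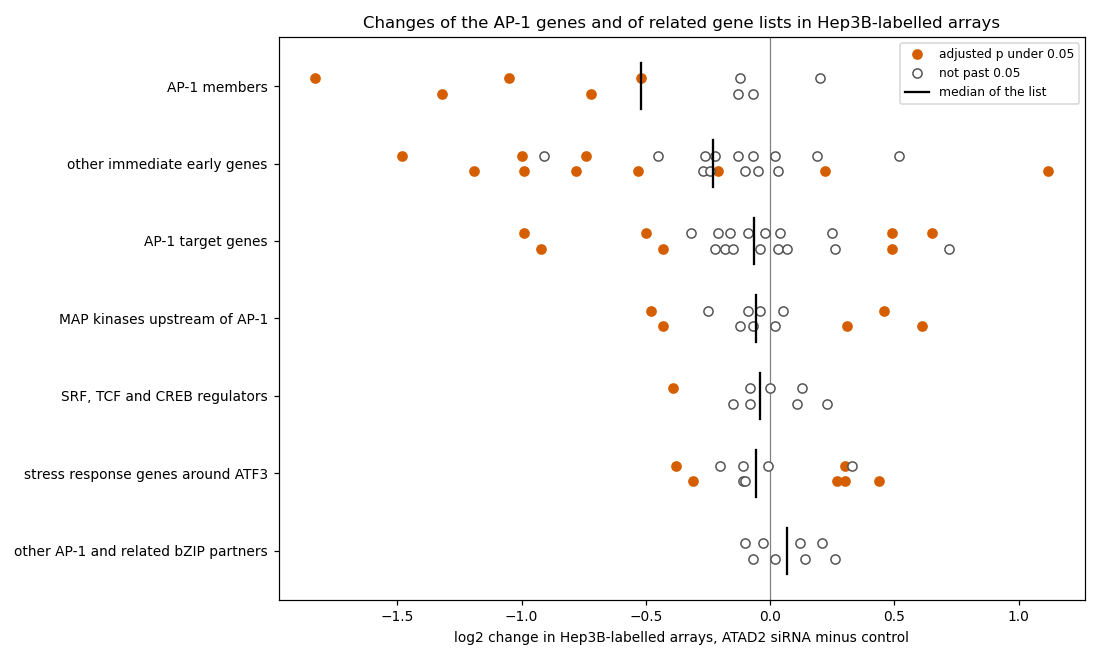
Log2 change in Hep3B of the measured genes of each pathway list, 1 point per gene by its brightest probe set, with genes called in limma filled and the list median marked. The immediate early list reaches from -1.48 (EGR1) to 1.12 (KLF4), and its median (-0.23) lies below that of all genes (-0.02).

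Genes known as AP-1 targets did not move one way in Hep3B. Of 22 measured, 4 fell and 3 rose (limma), against 5.60% and 6.91% of all genes, with a median log2 change of -0.06. The angiogenic factor gene VEGFA fell by 0.99, cyclin D1 (CCND1) by 0.92 and the EGF family ligand gene HBEGF by 0.50. The gap junction gene GJA1 rose by 0.65. The other calls were EZR (-0.43), TIMP1 (0.49) and CCL2 (0.49), the last lost under 3 of 26 alternatives. All 3 CCND1 values after knockdown (7.91, 8.05 and 8.09) lay below its controls (8.94, 8.93 and 8.93). The matrix metalloproteinase genes MMP1, MMP3, MMP9, MMP10, MMP12 and MMP13 were not called. Of 12 MAP kinase pathway genes, 3 rose and 2 fell, against the same shares of all genes. MAP2K4, a kinase that activates JNK, rose by 0.61 (adjusted p = 1.95e-05), and MAPK8, which encodes JNK1 and acts on JUN, fell by 0.48 (1.24e-04). RPS6KA3 rose by 0.46 and MAP2K6, a kinase that activates p38, fell by 0.43. Of 8 SRF, TCF and CREB regulators 1 fell, ELK4 (-0.39), and none of 8 other bZIP partners was called (limma).

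The stress response genes around ATF3 were mixed in Hep3B. Of 12 measured, 4 rose and 2 fell (limma), against 6.91% and 5.60% of all genes, with a median log2 change of -0.05. TRIB3, a pseudokinase gene induced through ATF4, rose by 0.44 and the kinase genes EIF2AK3 and EIF2AK4 each rose by 0.30, while DDIT4 fell by 0.38 and DDIT3, which encodes CHOP, by 0.31. ATF4 itself read -0.11 (adjusted p = 0.489). Without ATAD2 siRNA replicate 2, 4 rose and 0 fell. Of the falls, the DDIT3 call was lost under 15 of 26 alternatives and the DDIT4 call under 5. Of the rises, that of ASNS was lost under 17 and that of EIF2AK3 under 2. In the other lines these pathway lists held 1 call in SNU449 and 2 in PLC, where 0.0759% and 3.14% of all genes were called. In SNU449 KLF4 rose by 0.51 (limma, adjusted p = 0.0346), a call lost under 12 of 26 alternatives. In PLC MYC fell by 0.37 (0.0366) and SGK1 by 0.31 (0.0414), calls lost under 14 and 15. Each of these 3 calls was lost without some single arrays of every line, and adjusted p-values reached 0.321 for KLF4, 0.243 for MYC and 0.258 for SGK1.

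Markers of cell types were read beside the members. In Hep3B 6.91% of all genes were called higher and 5.60% lower (limma). There 1 of 11 hepatocyte markers rose (FGB, 0.39) and 1 fell (FOXA2, -0.40), and 1 of 8 mesenchymal markers rose (SPARC, 0.83). Of 6 epithelial keratins and adhesion genes 2 rose (KRT8 and KRT18) and KRT7 fell (-1.08). Of 6 leukocyte and endothelial markers 1 was called, CD14 (0.49), with a control signal of 4.51 to 4.73, below the array median. In PLC 5 of 11 hepatocyte markers fell, ALB by 1.02 among them, and 1 of 6 epithelial markers, CDH1 (-0.57). Of all genes 1.57% were called lower there. In SNU449 1 of 11 hepatocyte markers fell, CPS1 (-0.46), against 0.0405% of all genes called lower. The part of these shifts in the members' values was not tested.

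The genes most like a member over the 18 arrays were found from log2 deviations from the line's control mean, by the smallest root mean square difference. For FOS, whose own deviations had a root mean square of 0.99, the nearest were HES1 (0.39), EGR1 (0.43), DUSP1 (0.52), IAPP (0.53) and ASZ1 (0.54). HES1, a transcriptional repressor of the Notch pathway, deviated by -0.15, -3.71 and -0.23 on the Hep3B ATAD2 siRNA arrays, so its likeness to FOS rested on replicate 2, and its own change was not called (-1.36, limma, adjusted p = 0.205). For ATF3 (0.59) the nearest was DUSP1 at 0.08, followed by IAPP (0.15), CACNA2D3 (0.20), PMAIP1 (0.21) and LMAN1 (0.22). DUSP1 deviated by -0.82, -1.89 and -0.87 on those arrays. For JUN (0.22) the nearest were HNRNPA3 (0.05) and ZNF24, INIP, TMBIM4 and PPTC7 (0.06 each).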

How the data were processed

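Biotin-labelled total RNA of 18 samples was hybridised to 1-colour expression arrays, per the labels. The deposited table holds 1 log2 value per probe set and array, as judged from its range of 1.33 to 14.0. The submitters' processing notes name limma without a version, and how background and scale were treated was not given in the sources used here. Sorted columns of 1 line lay within 0.16 of each other and those of different lines up to 1.51 apart, so values were quantile normalized over the 18 arrays. No columns were identical, and replicates of a group correlated at 0.994 or more.

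The platform annotation gave 1 gene for 41097 probe sets, several for 1801 and none for 11777. Symbols of 41043 were updated by gene ID from the RefSeq table of GRCh38.p14. No probe set with several genes named a member. Genes of the lists were represented by their probe set of highest mean signal.

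One mean per group was fitted with limma 3.58.1 (lmFit and eBayes, R 4.3.3, 12 residual and 4.01 prior degrees of freedom) to 54613 probe sets, the array maker's control probe sets left out. P-values are two-sided, adjusted over all probe sets by Benjamini-Hochberg, with a threshold of 0.05. Control comparisons also needed a log2 difference of at least 1. An exact permutation test of 3 arrays against 3 cannot give a p under 0.1. The labels call the samples biological replicates without naming separate cultures, so p-values measure the spread between these samples, and the number of arrays limits precision. The fit was also run on simulated data, with independent noise and 1 spread per probe set, the same in all groups. Those data cannot show how it behaves where groups differ in spread, as for FOS (standard deviations of 0.03 to 1.77).

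Members and lists were chosen with earlier results of these data known. Named genes are all members, ATAD2, the label checks, up to 4 called genes of each list and line by size of change, and the 5 genes most like FOS, JUN and ATF3. Outside that rule, RB1, CD14, ATF4, EIF2AK4, ASNS, EZR, TIMP1, CCL2 and the metalloproteinase genes were named after their values were seen. The alternatives were the deposited values, normalization within lines, median centring, leaving out the dimmest 30% or 50% of probe sets, a replicate block, a robust prior with an intensity trend, 1 probe set per gene, each line by itself, each array left out, and a covariate of 5' and 3' signal.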

Additional observations from a re-analysis of the deposited data

Results flagged for a closer look

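The response to ATAD2 siRNA differed between the lines for 4 member probe sets, by the limma F test over the interaction contrasts. The adjusted p was 0.00492 for JUN 201464_x_at, which changed by -0.52 in Hep3B, -0.08 in SNU449 and 0.03 in PLC (log2). It was 0.0465 for JUN 201465_s_at, with changes of -0.72, -0.18 and -0.26. For JUNB it was 0.0134, with changes of -1.05, 0.10 and -0.01. For ATF3 202672_s_at it was 0.00911, with changes of -1.32, 0.13 and -0.18. Groups of 3 arrays are too small for the test for single outlying samples.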

How the results depend on the processing

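Of 1695 member changes recomputed under an alternative, 0 changed direction with a call on either side. In Hep3B, 7 of the 10 called probe sets kept the call under all 27 alternatives, and those of FOS, FOSB and FOSL2 228188_at were lost under 15, 4 and 5. A call was gained in 12 of 1425 recomputed changes that had not passed. With 1 array left out, between 7 and 10 of the 21 member probe sets were called in Hep3B, where 6.13% to 10.8% of all were. In SNU449 it was 0, against 0.0165% to 0.0916%, and in PLC between 0 and 5, against 1.85% to 13.8%. The 5 in PLC came from the fit in which 13.8% of all were called. Between 3 and 7 member probe sets differed in response between lines. Between control arrays the counts were 8 for SNU449 and Hep3B, 8 to 10 for PLC and Hep3B and 7 to 8 for SNU449 and PLC. The shares of all probe sets beside these counts between lines are not given here. In PLC, where no member was called, JUND 203751_x_at was the 1 called on the deposited values, and again with normalization within each line. With arrays centred on their medians 2 member probe sets were called. Of all probe sets 2.98%, 2.96% and 2.96% were called in PLC in these settings, in that order. The cause was not tested. The deposited values and normalization within each line each gave 16 in place of 9 for PLC and Hep3B and 13 in place of 8 for SNU449 and PLC. Both keep the offset between the lines, and the shares of all probe sets under them are not given here.

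Same-numbered arrays of a line did not deviate together (correlations of -0.10 to 0.07), so the replicate numbers were not taken to pair the samples. With the replicate block, 9 member probe sets were called in Hep3B, 0 in SNU449 and 0 in PLC. Of all probe sets 6.68%, 0.0201% and 1.96% were, in that order. With the block 3 member probe sets differed in response between lines, and 8 differed between the controls of each pair of lines. The shares of all probe sets beside these last counts are not given here. The block ended the Hep3B call of FOSL2 228188_at (adjusted p = 0.0772, limma), the difference in response of JUN 201465_s_at (0.112) and the control difference of ATF3 202672_s_at between PLC and Hep3B (0.78, under 1 log2 unit). Of the list genes named, it ended the calls of KLF4 in SNU449, MYC and SGK1 in PLC, and DDIT3, DDIT4 and ASNS in Hep3B. The 5' and 3' covariate was chosen after seeing the data. ATF3 1554420_at and FOSL2 218881_s_at were not tested without the dimmest 50% of probe sets, since their means lay below that limit.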
